A study of Mus musculus with 5 samples.

Results

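The miR-34 family was measured in bone marrow-derived dendritic cells (BMDCs) of C3H/HeJ mice, on 3 arrays after stimulation with flagellin and on 2 arrays after culture in medium alone. The family was taken as every mouse miRNA on the array named miR-34a, miR-34b or miR-34c with its arm, 5p or 3p. This rule gave 6 of the 1122 mouse miRNAs, which the array lists as mmu-miR-34a-5p, mmu-miR-34a-3p, mmu-miR-34b-5p, mmu-miR-34b-3p, mmu-miR-34c-5p and mmu-miR-34c-3p. miR-34a-5p and miR-34a-3p are the arms of the Mir34a hairpin, and miR-34b-5p, miR-34b-3p, miR-34c-5p and miR-34c-3p those of the Mir34b and Mir34c hairpins. All 5 samples were BMDCs grown with rmGM-CSF and rmIL-4 and purified on anti-CD11c magnetic beads. Flagellin (FliC, 100 ng/ml), the bacterial protein that TLR5 recognizes, was given for 24 h, and the control cells received medium for the same time. C3H/HeJ is a strain whose lipopolysaccharide receptor TLR4 does not signal, and both groups share it. The labels number the samples 1 to 3 and 1 to 2 and do not say whether these were separate cultures or mice, so p-values measure only the spread between these samples, which may be technical.

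A miRNA is cut from a hairpin precursor and directs silencing of mRNAs that pair with its seed, bases 2 to 8 from its 5′ end. The miR-34 miRNAs are known as targets and effectors of the tumour suppressor p53, and they repress cell cycle and survival genes. miR-34a comes from a locus of its own and is found in many tissues, myeloid cells among them, whereas miR-34b and miR-34c share a primary transcript that is abundant in ciliated epithelium and testis. miR-449 miRNAs come from another locus and are also known from ciliated cells, and miR-449a-5p and miR-449c-5p carry the seed of miR-34a-5p.

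In the RefSeq annotation of GRCm38, Mir34a lies on chromosome 4 from 150068454 to 150068555, and no other gene of that table overlaps it. Mir34c (chromosome 9, 51103034 to 51103110) and Mir34b (51103562 to 51103645) together take up 612 bases, and both lie inside the spans of Btg4 and Hoatz. RefSeq held the mature sequence of 5 of the 6 members, miR-34c-5p being the other. The 5p sequences are shown with those of miR-449 because they carry the same seed, which is in capitals.
miR-34a-5p: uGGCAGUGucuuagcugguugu
miR-34b-5p: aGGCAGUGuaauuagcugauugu
miR-449a-5p: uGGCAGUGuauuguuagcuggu
miR-449c-5p: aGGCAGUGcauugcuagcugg
Among the 1679 mature mouse sequences of the RefSeq table, these 4 hold this seed. The sequences of miR-34c-5p and miR-449b were not in that table, so their seeds were not compared. miR-34a-5p lies at chr4:150068473-150068494 on the plus strand and miR-34b-5p at chr9:51103610-51103632 on the minus strand. The longest run of bases that miR-34a-5p shares is 8 with miR-34b-5p, 9 with miR-449a-5p and 7 with miR-449c-5p.

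The 3p arms carry other seeds. They are shown, again with the seed in capitals, because miR-34b-3p and miR-34c-3p share theirs and miR-34a-3p has a seed that no other sequence of the table holds.
miR-34a-3p: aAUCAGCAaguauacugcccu
miR-34b-3p: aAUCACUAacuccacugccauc
miR-34c-3p: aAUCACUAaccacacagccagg

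Each member was read by 2 probes that differ in length by 1 base, each printed in 20 spots. The probes of miR-34a-5p and miR-34b-5p are shown, with the letters that pair with the seed in capitals, because the end of the probe within the seed is where the shorter and the longer probe differ.
miR-34a-5p longer probe: acaaccagctaagaCACTGC
miR-34a-5p shorter probe: acaaccagctaagaCACTG
miR-34b-5p longer probe: acaatcagctaattaCACTGCC
miR-34b-5p shorter probe: acaatcagctaattaCACTGC
The longer probe of miR-34a-5p reads bases 3 to 22 of the miRNA and the shorter bases 4 to 22. For miR-34b-5p the longer probe reads bases 2 to 23 and the shorter bases 3 to 23. In the array files, whose header names the mm9 build, the longer probe of miR-34a-5p is placed at chr4:149442584-149442603.

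The authors' scanner software gave each miRNA a total gene signal, the sum of those of its probes whose signal is above 3 times its own error. Where no probe passes, the miRNA counts as undetected and is listed at 0.1. Between 292 and 317 mouse miRNAs were detected per array. For comparison between arrays, the total gene signal was divided by an array-specific value (211 to 293), the 75th percentile of the 277 mouse miRNAs that every array detected, and the quotient is called the scaled signal here. It was then raised to a common floor of 0.0121 and taken to log2. Signals of different probes have no common scale, so no level of one miRNA is set against that of another. Flagellin replicate 3 had the lowest 75th percentile. The 5 arrays were on 1 slide, with flagellin in array columns 2 and 3 and medium in column 4, so the effects of column and treatment cannot be told apart.

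Markers of myeloid and haematopoietic cells were present, a list that does not single out dendritic cells. All 6 myeloid and haematopoietic miRNAs that were looked up (miR-223-3p, miR-142-3p, miR-142-5p, miR-155-5p, miR-146a-5p and miR-21-5p) were detected on all 5 arrays. Their summed scaled signal was 124.4 to 142.6 with flagellin and 130 to 132 with medium. Most of that sum was miR-21-5p, at 102.4 to 119.3 with flagellin and 107.6 to 108.6 with medium, so it says little of the others. Of 6 epithelial miRNAs, 5 were undetected on every array, and miR-200c-3p was detected on 2 arrays with a total gene signal of at most 5.98. Both neural miRNAs, miR-9-5p and miR-124-3p, were undetected on every array. Among 2 lymphoid miRNAs miR-181a-5p, which myeloid cells also express, was detected on all arrays and miR-150-5p on none. Flagellin replicate 2 stood apart for some miRNAs of other cells, namely miR-199a-3p, miR-199a-5p, miR-451 and miR-126-3p. All epithelial and neural miRNAs were undetected on that array. The summed scaled signal of the 5 stromal miRNAs on flagellin replicate 2 was 0.182. It was 0.0213 and 0.00237 on the other flagellin arrays and, in medium, 0.0212 and 0.00203. For the 2 erythroid miRNAs, of which only miR-451 was ever detected, the sum on flagellin replicate 2 was 0.0583, against 0.0192 and 0.000949, and 0.000709 and 0.000813. For the 2 endothelial miRNAs it was 0.0996, against 0.0453 and 0.0271, and 0.0448 and 0.0209. miR-143-3p, miR-145-5p and miR-214-3p (stromal), miR-144-3p (erythroid) and miR-126-5p (endothelial) were undetected on every array. Undetected miRNAs entered these sums at 0.1 before scaling. The stromal and erythroid sums of 0.00237 or less held undetected miRNAs only, so differences among them are those of the scaling value. The part of such cells in the results on miR-34 was not tested.

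miR-34a-5p, the main arm of the family, gave a strong signal on every array and differed little between the groups. Its total gene signals were 3732, 3653 and 2544 with flagellin, compared with 3449 and 3206 in medium. Flagellin replicate 3 was the lowest array and flagellin replicate 1 the highest, so the groups overlapped. After scaling, the values were 13.3, 12.5 and 12.1 with flagellin (mean 12.6 ± 0.611, SD, n = 3), compared with 12.2 and 13.0 in medium (mean 12.6 ± 0.565, SD, n = 2). The log2 fold change, flagellin over medium, was −0.0023 with a standard error of 0.082, and limma's test gave an adjusted p of 0.995 over the 307 miRNAs tested. Its 95% interval ran from −0.22 to 0.21, which is a fold between 0.859 and 1.16. The spread within groups, a residual SD of 0.068 on the log2 scale, was below the median of 0.139 over the tested miRNAs.

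The probes of miR-34a-5p gave like values. All 20 spots of each probe were well above background on every array. The longer probe read 1587 to 2347 and the shorter 958 to 1394, and the ratio of longer to shorter stayed between 1.62 and 1.70 over the 5 arrays. Each signal was 9.96 to 9.99 times its error, so the software's stated error was close to a fixed share of the signal at this brightness. The difference in log2 signal between the groups was −0.032 for the longer probe and −0.021 for the shorter, with an exact permutation p of 1.0 for each (2-sided, over the 10 splits of the arrays, where the smallest p is 0.1).

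**Figure D1:**
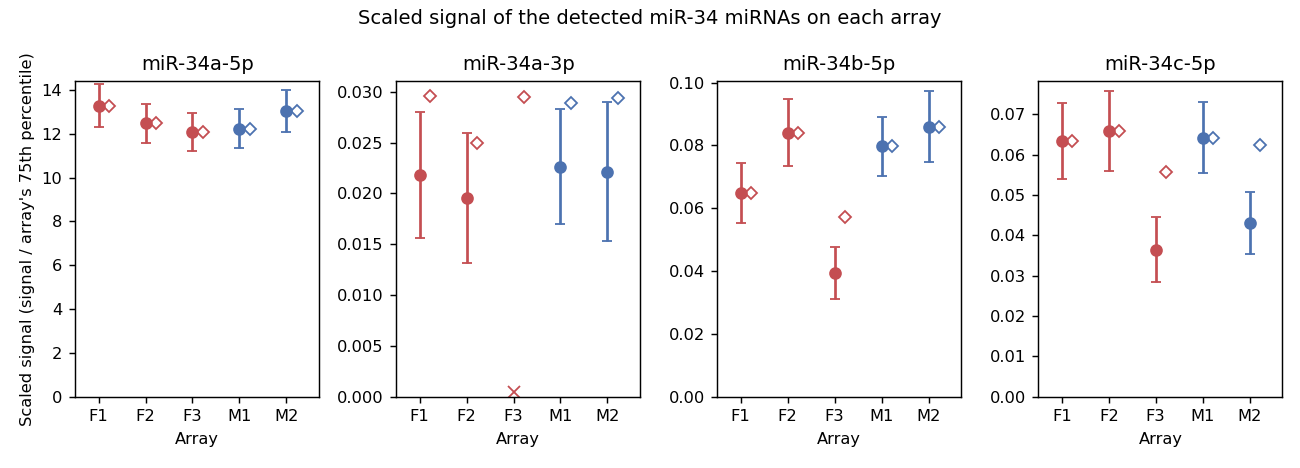
Scaled signal (total gene signal divided by the array's 75th percentile, linear axes from 0, a scale of its own in each panel) of the 4 detected members on flagellin arrays F1 to F3 (red) and medium arrays M1 and M2 (blue). Filled circles are the deposited signals with the software's error, the cross is an undetected value, and open diamonds are the sums of both probes whatever their error. miR-34a-5p lay between 12.1 and 13.3 on all arrays, and the low filled points of the other members were on F3, and on M2 for miR-34c-5p.

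miR-34a-3p, the arm cut from the other side of the same hairpin, was close to the limit of detection. Its total gene signals were 6.14 and 5.73 on flagellin replicates 1 and 2, with no detection on replicate 3, and 6.39 and 5.45 on the medium arrays. Only its longer probe ever passed the limit, and on flagellin replicate 3 that probe read 4.24 against a limit of 4.79. The shorter probe read 1.59 to 2.18 and stayed below the limit on all 5 arrays. At most 8 of the 20 spots of the longer probe were well above background on any array.

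The scaled log2 values of miR-34a-3p were −5.52 and −5.68 on flagellin replicates 1 and 2, −6.37, the floor, on replicate 3, and −5.47 and −5.50 with medium. The flagellin values were all below the medium values, by 0.019 for the nearest pair. The log2 fold change, with 1 array at the floor, was −0.37 with a standard error of 0.28 (limma, adjusted p = 0.859), and without flagellin replicate 3 it was −0.12. With both probes summed whatever their error, an alternative chosen after seeing the data, it was −0.059 with a standard error of 0.11.

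miR-34b-5p and miR-34c-5p, the 5p arms of the chromosome 9 cluster, were detected on all 5 arrays at signals close to the limit. Neither passed the test. miR-34b-5p had total gene signals of 18.3, 24.6 and 8.27 with flagellin, against 22.5 and 21.2 in medium. Flagellin replicate 2 was the highest array and replicate 3 the lowest, and the medium arrays lay within that range. On flagellin replicate 3 the shorter probe, at 3.74, was below its limit of 4.74, so the total there held only the longer probe. On the other 4 arrays it held both.

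On the scaled log2 scale, miR-34b-5p was −3.94, −3.57 and −4.67 with flagellin (mean −4.06 ± 0.56, SD, n = 3) and −3.65 and −3.54 with medium (mean −3.59 ± 0.078, SD, n = 2). The log2 fold change was −0.47 with a standard error of 0.34 and a 95% interval from −1.38 to 0.44 (limma, adjusted p = 0.859). It was −0.16 without flagellin replicate 3 and −0.71 without flagellin replicate 2. With both probes summed on every array, it was −0.29 with a standard error of 0.18 (limma, adjusted p = 0.877). It kept its negative sign under all 20 alternatives fitted, at an adjusted p of 0.442 or more, and was 0.075 between the single flagellin and medium arrays of array row 2.

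The longer probe of miR-34b-5p passed the limit on every array, with 12.6, 16.2 and 8.27 with flagellin and 15.1 and 14.1 with medium. Flagellin replicate 2 was above both medium arrays and the other flagellin arrays below them. The difference in log2 signal was −0.29 (exact permutation p = 0.6). Divided by the array's 75th percentile, the longer probe gave means of 0.0465 ± 0.00819 (SD, n = 3) for flagellin and of 0.0554 ± 0.00278 (SD, n = 2) for medium, and the exact permutation p was 0.3.

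miR-34c-5p had total gene signals of 17.8, 19.3 and 7.69 with flagellin, against 18.1 and 10.6 in medium. Flagellin replicate 3 and medium replicate 2 were low and the other 3 arrays high, so the groups overlapped fully. These were also the arrays on which the shorter probe missed the limit, with 4.03 against 4.77 and with 4.76 against 4.98. The longer probe alone read 12.1, 13.3 and 7.69 with flagellin, compared with 11.7 and 10.6 in medium, so that the highest and the lowest array were both flagellin arrays.

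With both probes summed, the scaled signals of miR-34c-5p were 0.0634, 0.0659 and 0.0556 with flagellin, compared with 0.0642 and 0.0624 in medium. These values lay closer together than the deposited totals, whose scaled signals were 0.0634, 0.0659, 0.0365, 0.0642 and 0.0431 in the same order. The residual SD on the log2 scale was 0.11 with both probes summed and 0.45 as deposited. The log2 fold change of miR-34c-5p was 0.022 with a standard error of 0.34 as deposited (limma, adjusted p = 0.990) and −0.042 with a standard error of 0.11 with both probes summed (adjusted p = 0.921). The 95% intervals were −0.88 to 0.93 and −0.31 to 0.22.

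**Figure D2:**
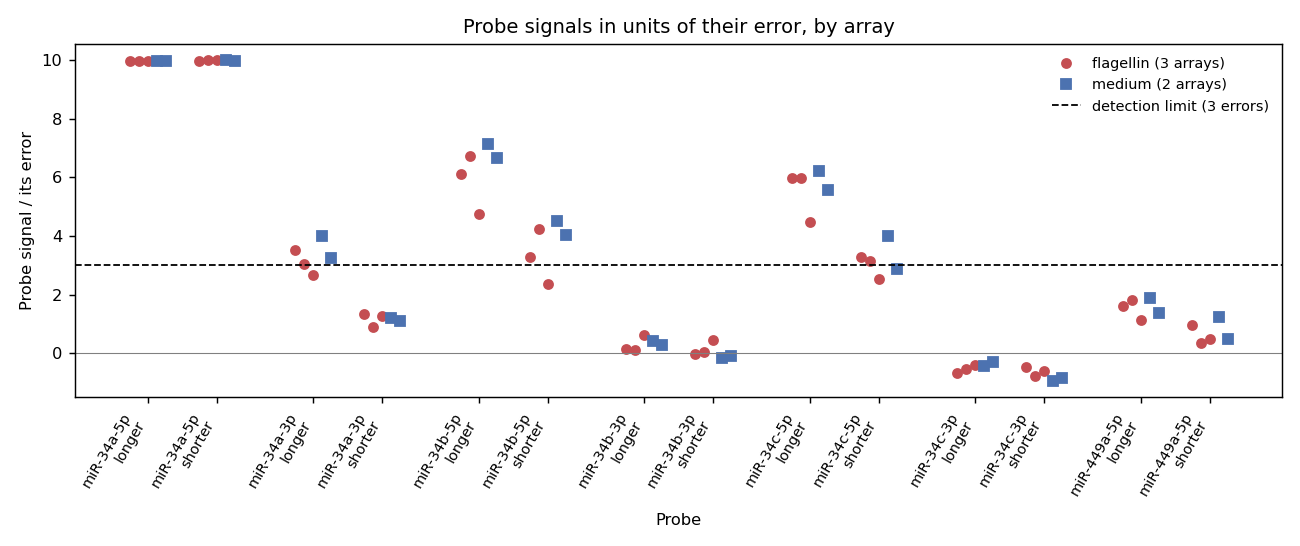
Probe signal divided by its own error (vertical axis, no unit) for the longer and the shorter probe of each miR-34 member and of miR-449a-5p, with 3 flagellin arrays (red circles) and 2 medium arrays (blue squares); the dashed line is the detection limit of 3 errors. miR-34a-5p stood at 9.96 to 9.99, the shorter probes of miR-34b-5p and miR-34c-5p lay on both sides of the line, and the 3p arms of the chromosome 9 cluster lay around 0.

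The 3p arms of the chromosome 9 cluster were not detected on any array. Over 2 probes and 5 arrays, the signals of miR-34b-3p ran from −0.242 to 0.973 and those of miR-34c-3p from −1.40 to −0.457. The highest signal of either was 0.632 times its error. A signal below 0 here is one that the software placed below background. Neither miRNA was tested, and a level below the detection limit cannot be told from none. Of the 60 pairs of member probe and array, 31 were above the limit.

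Across the family, 3 of 6 members were detected on all 5 arrays, 1 on 4 arrays and 2 on none, so 4 passed the filter of detection on at least 2 arrays. In limma's test none of these 4 passed at an adjusted p under 0.05, or at an unadjusted p under 0.05. Over all 307 tested miRNAs, 2 passed the former (0.651%) and 18 the latter (5.86%). Leaving out flagellin replicate 3 raised the latter count to 71, and leaving out flagellin replicate 1 or medium replicate 1 lowered it to 11 or 7. The deposited flagellin values of 1 of the 4, miR-34a-3p, were all below the medium values, and this held for 8.79% of all tested miRNAs. With both probes summed, the groups of miR-34a-3p overlapped. The median log2 fold change of the 4 was −0.19 as deposited, against 0.0095 over all tested. It rests on miR-34a-3p, with 1 array at the floor, and miR-34b-5p, with a probe lost on 1 array. With both probes summed, the log2 fold changes were −0.0023 for miR-34a-5p, −0.059 for miR-34a-3p, −0.29 for miR-34b-5p and −0.042 for miR-34c-5p. Without flagellin replicate 2, where the summed signals of the stromal and erythroid miRNAs were highest, the log2 fold changes were 0.0053 for miR-34a-5p, −0.46 for miR-34a-3p and −0.13 for miR-34c-5p. Over the 12 probes of the 6 members, the smallest exact permutation p was 0.2 for the unscaled signals and 0.1 after division by the array's 75th percentile, the latter for the longer probe of miR-34c-3p, which was below the detection limit on every array.

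**Figure D3:**
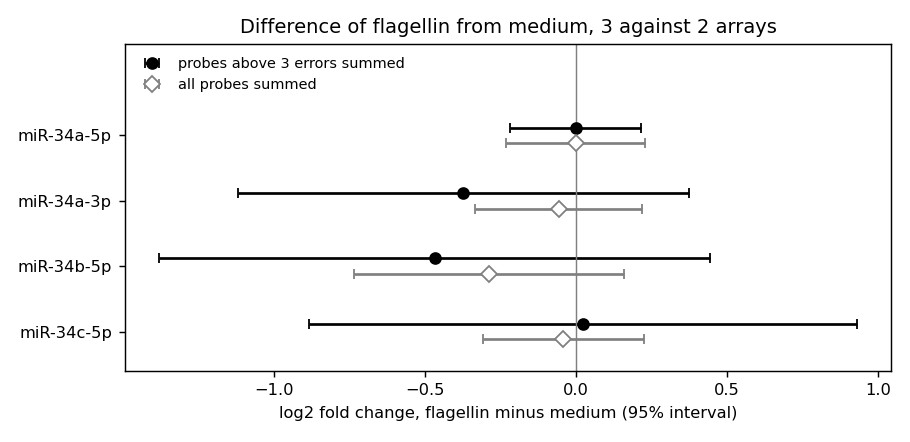
Log2 fold change of flagellin over medium (horizontal axis) with its 95% interval from limma, 3 against 2 arrays, for the 4 tested members. Filled circles use the deposited total gene signal and open diamonds the sum of both probes whatever their error. Each interval includes 0, and that of miR-34a-5p was the narrowest in both sets.

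The labels pose no question on the family itself, but its loci can be contrasted within each array. The log2 ratio of miR-34a-5p to miR-34b-5p was 7.68, 7.21 and 8.26 with flagellin, compared with 7.26 and 7.24 in medium. It carries the unlike probe scales and shows only unequal change between arrays. Flagellin replicates 1 and 3 lay above the medium arrays and replicate 2 just below them. The difference between the groups was 0.47 (exact permutation p = 0.4, 2-sided), or 0.29 with both probes summed (exact p = 0.4). It was 0.19 without flagellin replicate 3 and 0.72 without flagellin replicate 2.

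For miR-34a-5p to miR-34c-5p the log2 ratio was 7.71, 7.56 and 8.37 with flagellin, compared with 7.57 and 8.24 in medium. The high values were on flagellin replicate 3 and medium replicate 2, where miR-34c-5p was summed over 1 probe. The difference between the groups was −0.024 (exact permutation p = 0.9) as deposited and 0.040 (exact p = 0.7) with both probes summed. With 1 array left out, it ran from −0.36 without medium replicate 1 to 0.31 without medium replicate 2. In these 2 contrasts, no unequal change of the Mir34a and Mir34b/c loci was shown, and this exact permutation test of 3 against 2 arrays cannot reach a p below 0.1.

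**Figure D4:**
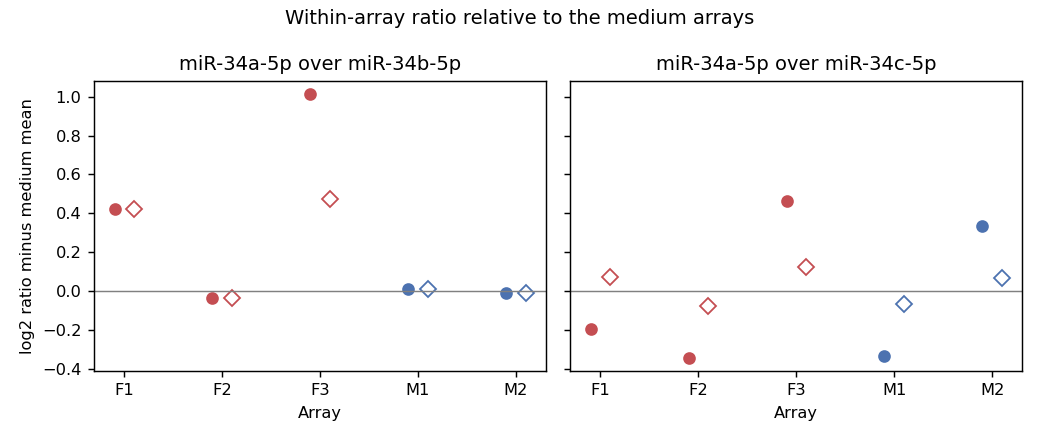
Log2 ratio of miR-34a-5p to miR-34b-5p (left) and to miR-34c-5p (right) within each array, minus its mean over the 2 medium arrays, for flagellin arrays F1 to F3 (red) and medium arrays M1 and M2 (blue). Filled circles use deposited totals and open diamonds the sum of both probes; the differences between groups were 0.47 and 0.29 on the left and −0.024 and 0.040 on the right.

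The loss of a probe at the limit was not particular to the family. Of the 277 mouse miRNAs detected on all arrays, 28 (10.1%) had totals made of different numbers of probes on different arrays, miR-34b-5p and miR-34c-5p among them. Their median residual SD was 0.45 on the log2 scale, against 0.12 for the other 249. A change in the number of probes itself moves the total, so part of this contrast follows from how the 28 were picked. With all probes summed the medians were 0.22 and 0.13. Of these 28, 13, 17 and 20 had their fewest probes, ties included, on flagellin replicates 1, 2 and 3, and 4 and 14 on medium replicates 1 and 2.

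The miR-449 miRNAs, of which miR-449a-5p and miR-449c-5p share the seed of miR-34a-5p and miR-34b-5p, were undetected. The array carried 5 miR-449 miRNAs (miR-449a-5p, miR-449a-3p, miR-449b, miR-449c-5p and miR-449c-3p), and none was above the limit on any array. Most of their signals, 51 of 70 pairs of probe and array, were below 0. The 10 signals of miR-449a-5p were all above 0, from 0.596 to 3.29, and at most 1.87 times their error. The longer probe of miR-449a-5p gave the highest signal, 3.29, and read 2.66, 3.29 and 1.73 with flagellin and 2.79 and 2.22 with medium. miR-449a-5p shares a run of 9 bases with miR-34a-5p, 1 more than miR-34b-5p does, but such a run does not measure pairing with a probe. Whether RNA of miR-34a-5p added to the signals of the miR-34b-5p and miR-34c-5p probes was not tested.

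Other miRNAs known to respond to p53, miR-107, miR-143, miR-145, miR-192, miR-194 and miR-215, were looked up beside the family, and miR-605 was not analysed here. The array carried 13 of their arms. Of these, 3 were detected throughout and the other 10 nowhere. miR-107-3p, which lies in an intron of Pank1, had scaled signals of 4.19, 3.87 and 3.88 with flagellin and 3.56 and 3.83 with medium, a log2 fold change of 0.11. miR-192-5p gave 0.141, 0.128 and 0.120 with flagellin and 0.111 and 0.113 with medium, a log2 fold change of 0.21. For these 2 miRNAs the flagellin values were all above the medium values, as for 11.4% of all tested miRNAs.

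miR-194-5p, which is made with miR-192 or miR-215 from shared transcripts, gave 0.166, 0.153 and 0.135 with flagellin and 0.143 and 0.135 with medium, and the groups overlapped. Its log2 fold change was 0.12. None of the 3 passed the test (limma, adjusted p = 0.859 for each), and their median log2 fold change was 0.12.

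The miRNAs whose profile over the 5 arrays was most like that of a member were found by the root mean square (RMS) difference of scaled log2 values, each centred on its own mean, among 276 others detected on all arrays. Nearest to miR-34a-5p were let-7f-5p (0.028), miR-511-3p (0.030) and miR-138-5p (0.032), against a median of 0.14 over all candidates. These profiles were all nearly flat, miR-34a-5p itself having an SD of 0.059 over the arrays. Nearest to miR-34b-5p were miR-219-5p (0.068), miR-29b-3p (0.23) and miR-142-3p (0.23), against a median of 0.46. The total of miR-219-5p also held 1 probe on flagellin replicate 3 and 2 on the other arrays. Nearest to miR-34c-5p were miR-503-5p (0.16), miR-148b-3p (0.20) and miR-101c (0.20), against a median of 0.40. miR-503-5p was summed over 1 probe on flagellin replicate 3 and medium replicate 2, the same arrays as miR-34c-5p, and over 2 on the others. miR-148b-3p was summed over 1 probe on flagellin replicate 3 and over 2 on the others.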

How the data were processed

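Total RNA of 3 flagellin and 2 medium samples was labelled with Cy3 and hybridized to 1-colour Agilent arrays. The authors extracted the deposited intensity files with Feature Extraction 10.7.3.1, and these hold spot and probe signals, errors and the total gene signal; 0 spots were saturated, and 5.28% to 6.38% were marked as outliers. The 3-error rule gave back 5895 of 5895 deposited totals within a relative 0.001. The authors also deposited log2 values, which differ from log2 of the total gene signals by a single constant on each array (within 1.6e-05).

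Control spots and viral miRNAs were left out. Scaled log2 values were compared in limma 3.58.1 (R 4.3.3; empirical Bayes, Benjamini-Hochberg over 307 miRNAs, 3 residual degrees of freedom), tested on simulated data first. Single probes (log2 signals, or signals where any was below 0) and ratios were compared by exact permutation in scipy 1.17.1. The miRNAs named were the members, miR-449, p53-responsive miRNAs detected on all arrays, 3 nearest profiles per member and cell type markers. The members and lists were chosen with earlier results of these data known. Alternatives covered scaling, floor, filter, probe-level values (normexp with offset 50), test, blocks, leaving out each array and the authors' values. Sequences and GRCm38.p6 positions are from RefSeq (5 of 6 members and 4 of 5 miR-449 miRNAs matched). The number of arrays limits the precision.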

Additional observations from a re-analysis of the deposited data

How the results depend on the processing

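No member had an adjusted p under 0.05 in any of the 79 member fold changes computed under alternatives (lowest adjusted p 0.442). The count of all miRNAs at an adjusted p under 0.05, 2 as reported, was 4 with a floor 10 times lower or with the authors' values, 1 with miRNAs detected on all arrays, no filter, limma's trend or array column as a random block, and 0 with no scaling, the percentile over all mouse miRNAs, either probe-level setting, quantile normalization, row as a block, or all probes summed (chosen after seeing the data). At an unadjusted p under 0.05 the latter settings gave 8 to 23. The methods' t-test gave 2 after Benjamini-Hochberg adjustment. With 1 array left out the count was 0 to 1. The column block cannot take an effect of column out of the difference, because no column held arrays of both groups. The fold change of miR-34a-5p turned positive with the percentile over all mouse miRNAs (0.18, where the median of all miRNAs moved by 0.19) and the authors' values (0.0042), and ran from −0.048 to 0.043 with 1 array left out. miR-34c-5p turned negative with column as a random block (−0.041), no scaling (−0.0035), processed probe signals (−0.042), normexp and quantile (−0.0021) and all probes summed (−0.042), and ran from −0.27 to 0.31 with 1 array left out, where its sign turned without flagellin replicate 1 or 2 or medium replicate 2. miR-34a-3p was 0.0075 with normexp and quantile and −1.92 with the authors' values, which place undetected miRNAs lower, and ran from −0.54 to −0.12 with 1 array left out. miR-34b-5p ran from −0.71 to −0.16 with 1 array left out and was −0.068 with normexp and quantile. The signal difference of the shorter miR-34a-5p probe was 0.0043 after scaling, and the ratio of miR-34a-5p to miR-34c-5p differed by 0.040 with processed probe signals or all probes summed. The cause of these turns was not tested. Within array row 1 (2 flagellin, 1 medium array) the fold changes of miR-34a-5p, miR-34a-3p, miR-34b-5p and miR-34c-5p were −0.040, −0.45, −0.77 and 0.16, and within row 2 (1 against 1) 0.028, −0.21, 0.075 and 0.037.

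With a replicate block, in which flagellin replicate 3 has no partner and does not bear on the difference, the count was 0 (39 at an unadjusted p under 0.05), miR-34a-5p stood at 0.028, miR-34b-5p at −0.16, miR-34c-5p at 0.30 and miR-34a-3p at −0.12. Deviations of same-numbered samples correlated at 0.047 and 0.0073, with 2 shared numbers. The deviations of the 2 medium arrays mirror each other by construction. These correlations therefore cannot tell whether same-numbered samples shared a culture, mouse or batch. Signals within a few errors of background limit what can be said of miR-34a-3p, miR-34b and miR-34c.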
